A study of Mus musculus with 6 samples.

Results

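The 9 genes Cd36, Fabp4, Fabp5, Gpihbp1, Lpl, Pparg, Angptl4, Plin2 and Cpt1a, which act in the uptake and handling of fatty acids by endothelium, were taken from the table of 34745 genes by symbol. All 9 were found, each with 1 row, and all 9 were among the 13692 genes that passed the filter on low counts. RNA came from LSECs, the sinusoidal endothelial cells of the liver, whose pores let plasma reach the hepatocytes. One group was Tgfbr2f/f mice (f/f), which carry the floxed Tgfbr2 allele and are titled WT, and the other was their littermates labelled Tgfbr2 ECKO, an endothelial knockout of this TGF-beta receptor. Every mouse of both groups had carbon tetrachloride (CCl4), a liver toxin that causes fibrosis, by intraperitoneal injection 2 times per week for 6 weeks, so no library shows the liver without it. Each group had 3 libraries. The Cre driver, the deleted part of the gene, the mice's age, sex and strain and the way LSECs were isolated were not given in the sources used here.

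Circulating triglyceride is carried in lipoproteins and must be cut into fatty acids before tissue can take them up. Lipoprotein lipase, made mostly by cells beneath the endothelium, does this on the capillary wall, where the protein GPIHBP1 holds it, and ANGPTL4 inactivates it. The surface receptor CD36 takes up fatty acids, FABP4 and FABP5 bind them in the cytoplasm, and PPAR-gamma is a nuclear receptor that binds fatty acids and turns on several of these genes. Fatty acids are then stored in lipid droplets, which perilipin 2 coats, or enter mitochondria through CPT1A to be oxidised.

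Total counts ran from 17171850 to 25062755 per library. Tgfbr2 itself was no lower in libraries labelled ECKO, with 387, 442 and 452 CPM (counts scaled to library size with TMM factors) in f/f replicates 1, 2 and 3 and 497, 487 and 511 CPM in the libraries labelled ECKO. The log2 fold change of Tgfbr2 was 0.22 (SE 0.10; adjusted p = 0.228 by edgeR's quasi-likelihood test), and a transcript that lacks only the deleted part would still be counted, so every direction here is that of the libraries labelled ECKO. The 12 markers of sinusoidal endothelium were all detected and summed to 24345 to 28605 CPM in f/f and 26317 to 31632 CPM in the libraries labelled ECKO. Stab2, a scavenger receptor of these cells, stood at 3269 ± 395 and 3184 ± 511 CPM (mean ± SD, n = 3 each) and was 1 of 2 of the 12 with a log2 fold change below 0. The list's median was 0.17. Pecam1, an adhesion molecule of all endothelium, was its only called marker and rose by 0.51 on the log2 scale (1132 ± 47.2 against 1614 ± 140.5 CPM; adjusted p = 0.0456). Oit3, Gpr182 and Clec4g were higher without overlap (log2 fold changes 0.39, 0.40 and 0.30), as were 15.7% of all genes tested, and did not pass. On the deposited FPKM, values scaled by gene length and library total, these 3 and Pecam1 overlapped. Fcgr2b alone of the 12 did not overlap on FPKM and was lower, as were 27.7% of all genes tested. Transcripts of the mitochondrial genome took 25.3 ± 6.47% of counts in the libraries labelled ECKO and 16.4 ± 6.33% in f/f (two-sided exact permutation test, p = 0.2). With 3 libraries against 3, no such test can go below 0.1. Whether each library is a mouse of its own is not in the labels, so p-values here reflect only the spread among these libraries.

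The RefSeq promoter table (GRCm38.p6) held windows for 4 of the 9 genes, namely Cd36, Plin2, Cpt1a and Pparg, and none for Fabp4, Fabp5, Gpihbp1, Lpl and Angptl4. PPAR receptors pair with RXR on direct repeats spaced by 1 base (DR1), so the 250 bases before each start were searched on both strands for AGGTCANAGGTCA, allowing at most 2 mismatches in its 12 defined bases. Of 32851 windows in the table, 3.24% held such a match, and of the 6 windows of these genes (3 of them for Pparg) 2 did. These are the windows of Cd36 and Plin2, and they are shown because they hold a match. The match is printed in capitals on the gene's own strand, where it reads as the reverse complement of the motif. The best site in the Cpt1a window and in each Pparg window had 4 mismatches. The Cd36 window is chr5:17835897-17836146, minus strand, inside the gene's deposited span. The Plin2 window is chr4:86670060-86670309, minus strand.
Cd36: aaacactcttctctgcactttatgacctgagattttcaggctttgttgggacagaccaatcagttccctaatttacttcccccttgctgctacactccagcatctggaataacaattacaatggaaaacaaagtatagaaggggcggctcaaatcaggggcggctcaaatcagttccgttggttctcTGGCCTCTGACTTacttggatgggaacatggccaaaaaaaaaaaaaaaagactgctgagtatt
Plin2: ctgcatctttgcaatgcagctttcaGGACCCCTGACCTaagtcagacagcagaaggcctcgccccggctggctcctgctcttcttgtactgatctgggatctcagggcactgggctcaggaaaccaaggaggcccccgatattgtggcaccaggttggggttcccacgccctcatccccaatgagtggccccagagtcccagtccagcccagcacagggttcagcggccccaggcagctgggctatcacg
The Cd36 match lies 63 to 51 bases before the start and the Plin2 match 225 to 213 bases before it. A single half-site, AGGTCA, stood in 5 of the 6 windows and in 14.0% of all windows. A match describes letters in these windows and shows no binding.

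Among the 9 genes Lpl alone passed the threshold and was lower in the libraries labelled ECKO. The other 8 did not pass. In the whole table edgeR's quasi-likelihood test called 552 of 13692 genes at an adjusted p under 0.05, which is 4.03%, and 2.79% were called lower. At an unadjusted p under 0.05 the count was 8 of the 9, against 23.5% of all genes tested. The 9 were chosen with earlier results of these data known, so their counts beside these shares are a description and test nothing. The 9 log2 fold changes ran from -1.88 to 0.54 with a median of -0.17, against a median of 0.01 over all genes tested. On TMM-scaled CPM the 2 groups did not overlap for any of the 9 genes, 5 being lower and 4 higher in the libraries labelled ECKO, where 30.9% of all genes did not overlap (15.2% lower and 15.7% higher). On FPKM, the deposited values scaled by gene length and library total, 4 of the 9 did not overlap (Cd36, Fabp5, Lpl and Pparg, all lower) against 29.7% of all genes (27.7% lower and 2.03% higher). Scaling by total count alone shifts the median of all genes to -0.22, as does limma on log2(FPKM + 0.1), so the size of all 9 values depends on the scaling. Where given below, values above 0 shrink and those below 0 grow in size under total count scaling.

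The members called depended on the method. They were Lpl, Cd36 and Pparg under total count scaling (9.29% of all genes called) and on log2(FPKM + 0.1) with limma (4.01%), and these 3 with Gpihbp1 in DESeq2 (11.0%). They were Lpl and Cd36 without the filter on low counts (3.63%) and Cd36 alone on log2(FPKM + 1) (3.34%). In limma-voom 0 were called (2.24% of all genes), with 8 at an unadjusted p under 0.05. Without f/f replicate 1, Lpl and Gpihbp1 were called (7.22%). Without f/f replicate 2 or 3 or ECKO replicate 1, 2 or 3 edgeR called 0 of the 9 (1.78%, 0.658%, 0.249%, 1.37% and 0.775% of all genes), with 4 to 6 at an unadjusted p under 0.05. All genes were counted at this unadjusted threshold in the main fit only, so nothing is read from the unadjusted counts of the other fits. Because whole populations were sequenced, fewer cells of a type and less RNA per cell cannot be told apart.

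**Figure D1:**
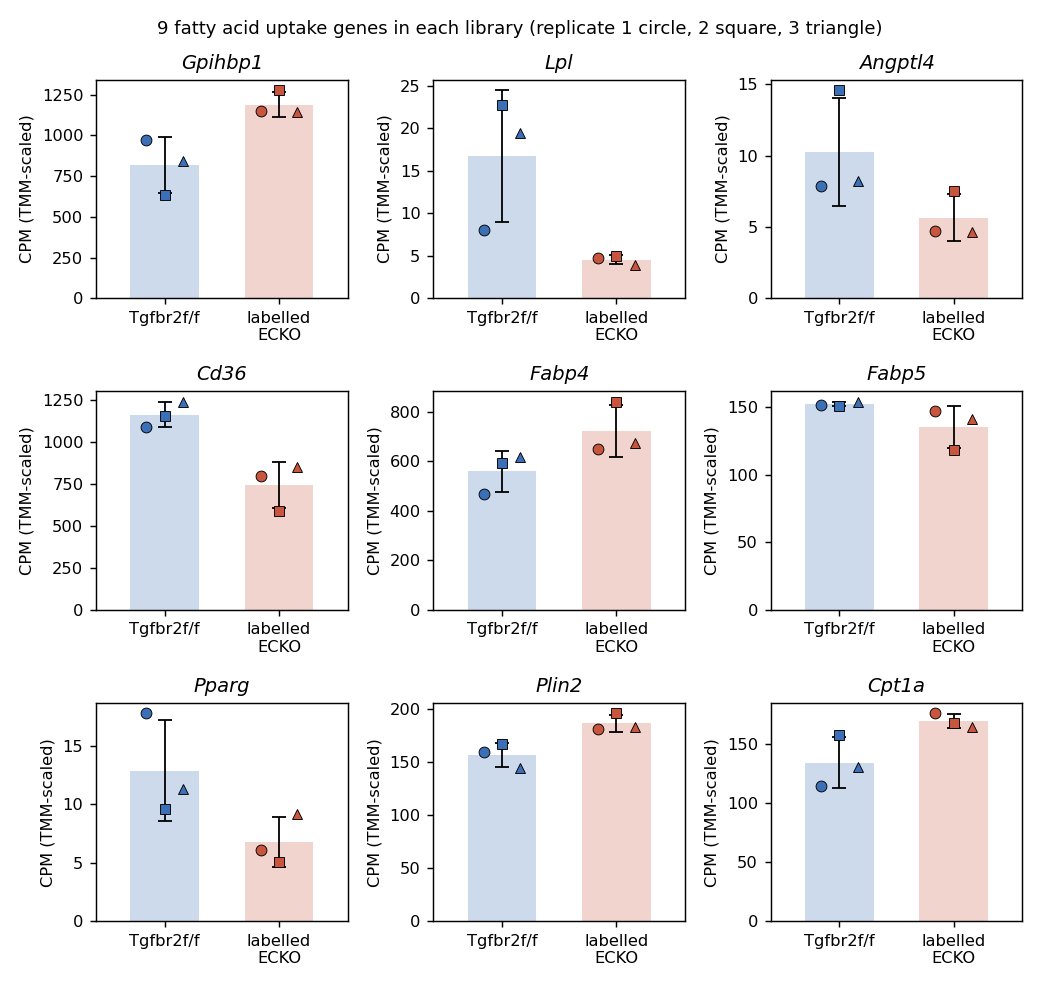
TMM-scaled CPM (vertical axis, from 0) of the 9 genes in the f/f libraries (blue) and the libraries labelled ECKO (red). Points are libraries, bars are means and error bars are SD (n = 3). The groups do not overlap in any panel, and the means differ by the largest ratio for Lpl, where f/f replicate 1 sits at 8.02 CPM, below the other f/f libraries.

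Levels per length placed the 9 genes in 3 tiers. In f/f, mean FPKM was highest for Gpihbp1 (219 ± 32.4, n = 3), followed by Cd36 (152 ± 24.6) and Fabp4 (120.2 ± 29.0), with Cd36 and Fabp4 overlapping. Fabp5 (39.3 ± 4.33), Cpt1a (34.3 ± 8.40) and Plin2 (32.7 ± 3.90) formed the middle tier and overlapped each other in turn. Pparg (3.30 ± 0.723), Lpl (2.46 ± 1.29) and Angptl4 (2.17 ± 0.941) were lowest and overlapped likewise. Mean FPKM over all 6 libraries placed Gpihbp1 at percentile 99.3 of the genes tested and Lpl at percentile 31.3. In the libraries labelled ECKO the tiers were the same, but the order within them was not. Fabp4 (131 ± 30.2) stood above Cd36 (81.7 ± 12.3) with no overlap. Fabp5 (29.4 ± 1.65) had the lowest mean of the middle tier, but Cpt1a, Plin2 and Fabp5 again overlapped in turn. Lpl (0.550 ± 0.0912) was lowest of all, below the range of Angptl4 (1.01 ± 0.382).

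**Figure D2:**
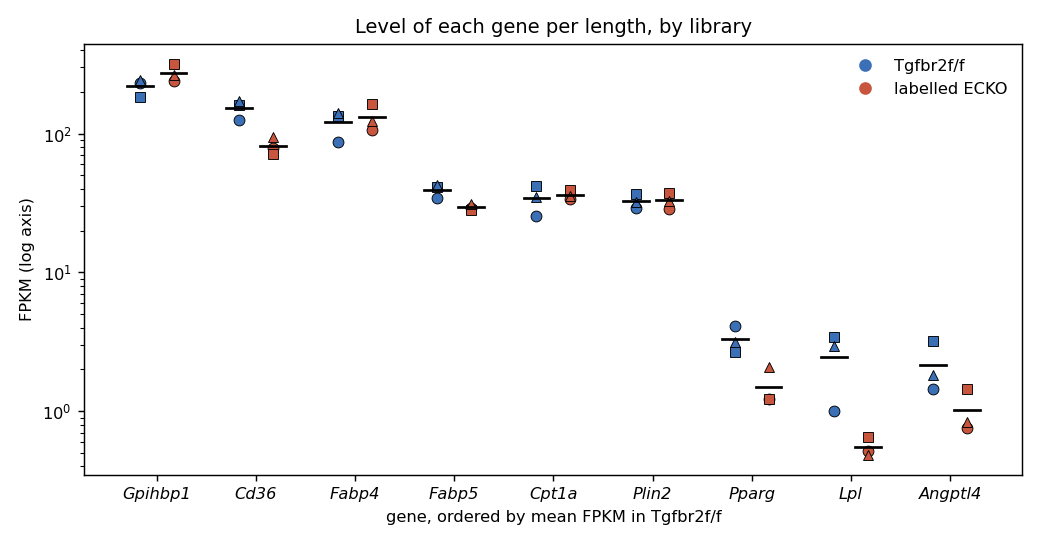
FPKM of each gene (vertical log axis) by library, with f/f in blue and libraries labelled ECKO in red. Black lines are group means. The 9 genes fall into a high tier (Gpihbp1, Cd36, Fabp4), a middle tier (Fabp5, Cpt1a, Plin2) and a low tier (Pparg, Lpl, Angptl4), and Lpl moves from 2.46 to 0.550.

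Lpl encodes lipoprotein lipase, the enzyme that releases fatty acids from lipoprotein triglyceride (ENSMUSG00000015568, chromosome 8, 68880491 to 68907448, plus strand, GRCm38). It was counted 192, 463 and 471 times in f/f replicates 1, 2 and 3 and 71, 86 and 69 times in the libraries labelled ECKO, or 8.02, 22.7 and 19.5 CPM against 4.72, 4.99 and 3.95 CPM. The groups did not overlap, f/f replicate 1 was the lowest of its group, and the libraries labelled ECKO lay close together. From a mean of 16.7 ± 7.73 CPM Lpl fell to 4.56 ± 0.539 CPM (log2 fold change -1.88 with SE 0.38, adjusted p = 0.0419 by edgeR), which leaves 0.272 of the f/f level. Counting error alone gives the lowest library, at 69 counts, a 95% Poisson interval of 53.7 to 87.3 counts. The call held without f/f replicate 1 (-2.20, adjusted p = 0.00197) and was lost without each of the other 5 libraries (adjusted p 0.0875 to 0.133) and in limma-voom (0.133).

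Lpl is also known from macrophages, stellate cells and fat cells, whose markers were measured in the same libraries. The 14 stellate and fibroblast markers, all detected, summed to 1923, 2819 and 2978 CPM in f/f against 1232, 974 and 1361 CPM in those labelled ECKO, and 6 of the 14 fell. The lowest f/f library on this list was replicate 1, as for Lpl. The 10 monocyte markers summed to 367 to 869.5 CPM in f/f and 375 to 527 CPM in the libraries labelled ECKO, with f/f replicate 1 again lowest in its group. Most of that sum was Spp1 and Cd9, of which Cd9 had a log2 fold change of 0.49, while the list's median was -1.67. Of its 8 tested markers edgeR called 0. At an unadjusted p under 0.05 were 6 (23.5% of all genes tested), among them Cd9, which was higher. Lower without overlap were 5 (15.2% of all genes), such as Trem2 (-4.02, adjusted p = 0.0529) and Gpnmb (-2.82, adjusted p = 0.0794). DESeq2 called 5 of the 8 lower and limma-voom 0, where they called 11.0% and 2.24% of all genes in either direction. The 11 Kupffer cell and macrophage markers other than Lpl, all detected, overlapped between groups at 57.5 to 116 and 69.7 to 97.3 CPM. Replicate 1 had the lowest f/f sum on every marker list except the sinusoidal and hepatocyte ones, so its low place is not particular to any 1 list. Clec4f, the Kupffer cell lectin, stood at 5.01 ± 1.25 and 11.995 ± 4.26 CPM (adjusted p = 0.0711). Cd68 and Marco, also of this list, were lower without overlap, at 5.18 ± 2.05 against 2.42 ± 0.247 CPM and 3.18 ± 0.943 against 1.74 ± 0.527 CPM (adjusted p = 0.0978 and 0.184). Of the 10 fat cell markers Lep and Retn were at 0 in all 6 libraries and 9 stayed under 1 CPM in each library, among them Adipoq, while the tenth, Lipe, is described with the lipid droplet genes. The part of these cell types in the fall of Lpl was not tested.

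**Figure D3:**
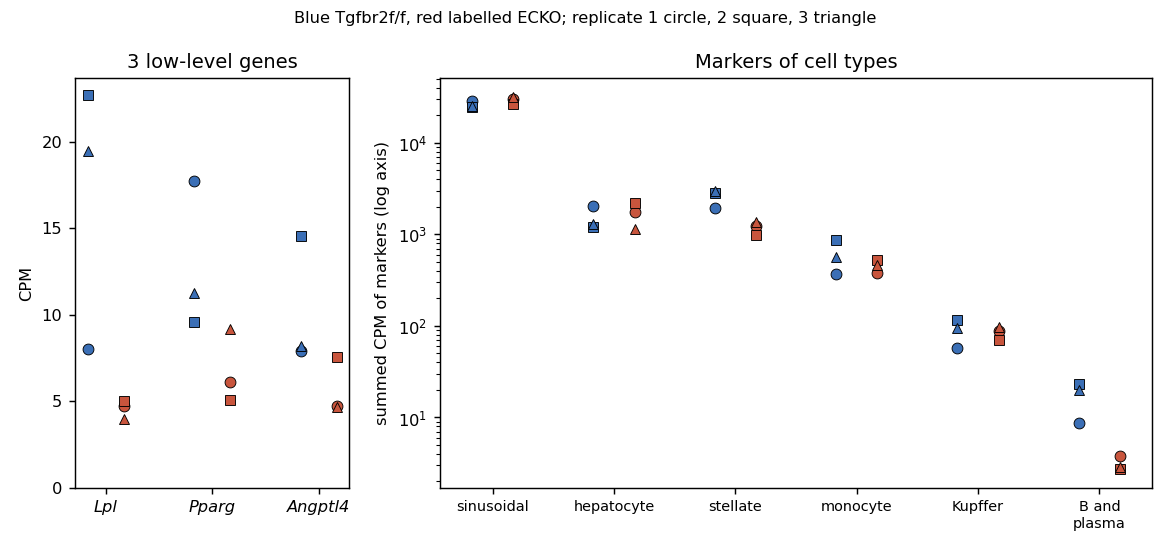
Left, CPM of Lpl, Pparg and Angptl4 (axis from 0), and right, summed CPM of marker lists (log axis), by library, f/f in blue and libraries labelled ECKO in red. The stellate list spans 1923 to 2978 CPM in f/f and 974 to 1361 CPM in the libraries labelled ECKO, the Kupffer and hepatocyte lists overlap, and f/f replicate 1 (circle) is the lowest f/f library for Lpl and the highest for Pparg.

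Gpihbp1 encodes the GPI-anchored protein that carries lipoprotein lipase across capillary endothelium and holds it there (ENSMUSG00000022579, chromosome 15, 75596628 to 75599481, plus strand). It was at 973, 633 and 842 CPM in f/f against 1149.7, 1278 and 1141 CPM in those labelled ECKO. All libraries labelled ECKO were above all f/f libraries, although by 1141 against 973 CPM at the nearest. The means were 816 ± 171 and 1189 ± 76.6 CPM, and the log2 fold change, 0.54 with SE 0.16, did not pass (edgeR adjusted p = 0.102). Without f/f replicate 1, the highest f/f library for this gene, it was 0.70 (adjusted p = 0.0379), and DESeq2 called it (0.53, adjusted p = 0.0367). On FPKM the groups overlapped, with 231, 182 and 243 in f/f against 239, 319 and 266 in those labelled ECKO. In the same libraries the 16 markers of continuous capillary and large vessel endothelium, where GPIHBP1 is classically found, summed to 10204 to 11916 CPM in f/f and 12081 to 14601 CPM in the libraries labelled ECKO. Most of this sum was 1 gene, the water channel Aqp1, at 7933 ± 524 and 9259 ± 759.5 CPM (adjusted p = 0.322). Of the 14 of these that were tested only Cd34 passed, and it fell by 1.17 on the log2 scale (87.0 ± 16.9 against 38.6 ± 10.3 CPM; adjusted p = 0.0345). Ly6c1 and Ly6a were lower without overlap on CPM, as were 15.2% of all genes tested, and did not pass (log2 fold changes -0.73 and -0.62). Aqp1, Cd300lg and Rspo3 were higher without overlap on CPM, as were 15.7% of all genes, and did not pass (0.22, 0.43 and 0.96). On FPKM Ly6a stayed apart, while Ly6c1, Aqp1, Cd300lg and Rspo3 overlapped. The list's median was 0.12, with 9 of the 14 above 0. The part of other endothelium in the level of Gpihbp1 was not tested.

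Angptl4 encodes the secreted protein that inactivates lipoprotein lipase and is induced by PPARs and fasting (ENSMUSG00000002289, chromosome 17, 33773750 to 33781575, minus strand). It was counted 189, 297 and 198 times in f/f and 71, 130 and 81 times in the libraries labelled ECKO, which is 7.90, 14.6 and 8.20 CPM against 4.72, 7.55 and 4.64 CPM. The groups nearly touched, at 7.90 and 7.55 CPM, and f/f replicate 2 stood above the rest. The means were 10.2 ± 3.78 and 5.64 ± 1.65 CPM, and the log2 fold change was -0.85 with SE 0.31 (adjusted p = 0.152). On FPKM they overlapped, at 1.447 in f/f replicate 1 and 1.452 in ECKO replicate 2.

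Cd36, the scavenger receptor that takes up long-chain fatty acids and oxidised lipoproteins (ENSMUSG00000002944, chromosome 5, 17781690 to 17888801, minus strand), was among the most abundant of the 9. It was at 1091, 1156 and 1239 CPM in f/f against 794, 589 and 848 CPM in those labelled ECKO, so the groups lay well apart. The log2 fold change was -0.64 (SE 0.15), or 0.640 of the f/f level, and it missed the threshold (edgeR adjusted p = 0.0582). It passed under total count scaling (-0.90, adjusted p = 0.0109), without the filter on low counts (0.0331), on log2(FPKM + 0.1) with limma (0.0368) and in DESeq2 (0.00209), and not without any 1 of the 6 libraries (0.0547 to 0.191). Total count scaling and log2(FPKM + 0.1) each put the median of all genes at -0.22. Set against the summed counts of the 12 sinusoidal markers in the same library, a measure chosen after seeing the data, Cd36 gave 38.1, 47.5 and 49.3 counts per 1000 in f/f against 26.3, 22.4 and 26.8 in the libraries labelled ECKO. That difference was -0.83 on the log2 scale (exact permutation p = 0.1, the smallest possible). On this measure Fabp5, Gpihbp1, Lpl and Pparg also did not overlap (permutation p = 0.1 each). Fabp4, Angptl4, Plin2 and Cpt1a overlapped (permutation p = 0.2 to 0.7).

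Fabp4 and Fabp5 encode close relatives among the cytoplasmic fatty acid binding proteins, and their genes lie near each other on chromosome 3. Fabp4 (ENSMUSG00000062515, 10204088 to 10208576, minus strand), a protein of capillary endothelium and fat cells, was at 467, 593 and 619.7 CPM in f/f against 650.4, 841 and 675 CPM in those labelled ECKO. Fabp5 (ENSMUSG00000027533, 10012548 to 10016607, plus strand) was at 152, 151 and 154 CPM in f/f against 147, 118 and 141 CPM in those labelled ECKO. The groups did not overlap for either gene, Fabp4 being higher and Fabp5 lower. Neither passed, with log2 fold changes of 0.37 (SE 0.15; adjusted p = 0.194) and -0.17 (SE 0.11; adjusted p = 0.374). Under total count scaling they were 0.13 and -0.42, so Fabp5 and not Fabp4 was then the farther from 0. Of the 75-base stretches of the longest Fabp5 transcript, 12.05% also stand in transcripts of Gm14328 and Gm6166 in the GENCODE M21 annotation, so reads from them could be shared, depending on read length and counting, which was not tested. No such stretch was shared for Fabp4.

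Pparg encodes PPAR-gamma, a fatty acid receptor known from fat cells, macrophages, quiescent stellate cells and endothelium (ENSMUSG00000000440, chromosome 6, 115360951 to 115490399, plus strand). Its counts were 425, 195 and 272 in f/f against 92, 87 and 160 in those labelled ECKO, or 17.8, 9.57 and 11.3 CPM against 6.12, 5.05 and 9.17 CPM. The groups were 9.57 and 9.17 CPM apart at the nearest, and f/f replicate 1 was the highest library, the reverse of its place for Lpl. The log2 fold change was -0.92 (SE 0.30) and did not pass (edgeR adjusted p = 0.126), and it was -0.61 without f/f replicate 1. It passed under total count scaling (-1.13, adjusted p = 0.0236), on log2(FPKM + 0.1) (0.0465) and in DESeq2 (0.0395). Total count scaling and log2(FPKM + 0.1) put the median of all genes below 0 too, at -0.22 each. Gene-level counts do not separate the transcripts of its 3 RefSeq starts. Lrat, the retinol-esterifying enzyme of quiescent stellate cells, stood at 70.8 ± 25.9 and 35.9 ± 13.6 CPM in the same libraries (adjusted p = 0.183). Its groups overlapped on CPM, at 44.0, 72.8 and 95.7 in f/f against 46.8, 20.7 and 40.3 in those labelled ECKO, and did not on FPKM. The place of f/f replicate 1 differed between stellate markers. It was the lowest f/f library for Lrat and the highest for Tcf21 (37.1, 35.4 and 34.9 CPM in f/f), as for Pparg. Of the 14 stellate and fibroblast markers 6 were called lower, against 2.79% of all genes tested. On CPM 10 of the 14 were lower without overlap, against 15.2% of all genes. The part of stellate cells in the level of Pparg was not tested. Ppard, the PPAR with broad endothelial expression, had a log2 fold change of -0.26 (adjusted p = 0.367) and Ppara one of 0.35 (adjusted p = 0.642).

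Plin2 and Cpt1a stand at the 2 fates of a fatty acid, storage and oxidation, and both were slightly higher in every library labelled ECKO without passing. Plin2, the droplet coat protein perilipin 2 (ENSMUSG00000028494, chromosome 4, 86648386 to 86670060, minus strand), was at 159, 167 and 145 CPM in f/f against 181, 196 and 183 CPM in those labelled ECKO. Its log2 fold change was 0.25 (SE 0.10; adjusted p = 0.175), and 0.02 under total count scaling. Cpt1a, the liver form of the enzyme that commits fatty acids to mitochondrial oxidation (ENSMUSG00000024900, chromosome 19, 3323301 to 3385732, plus strand), was at 115, 157 and 130.4 CPM in f/f against 176, 167 and 164 CPM in those labelled ECKO. Its log2 fold change was 0.33 (SE 0.13; adjusted p = 0.168), and 0.08 under total count scaling. On FPKM the groups overlapped for both genes.

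**Figure D4:**
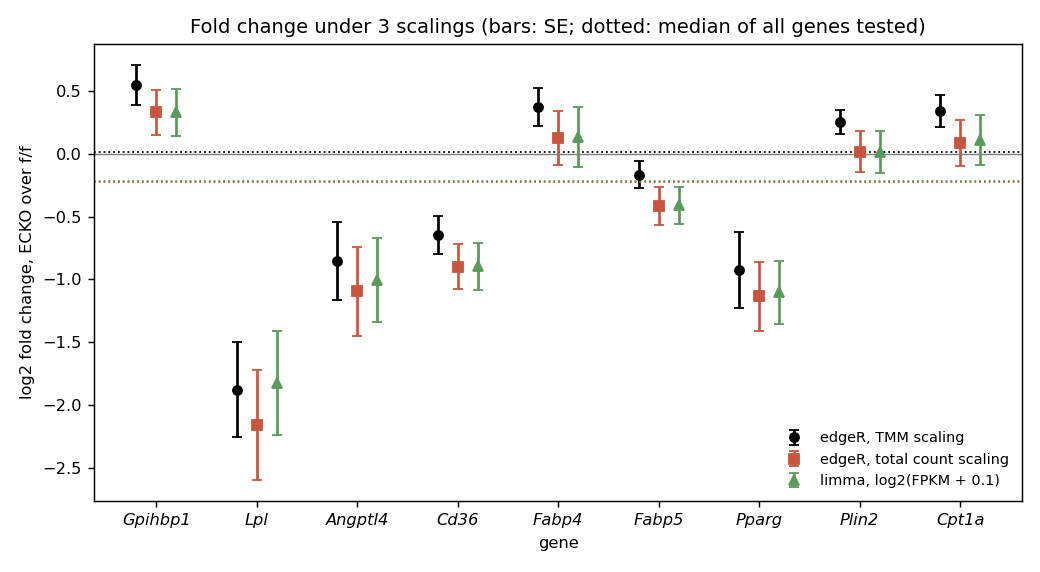
Log2 fold change of the 9 genes, libraries labelled ECKO over f/f, with SE bars, from edgeR with TMM scaling (black), edgeR with total count scaling (red) and limma on log2(FPKM + 0.1) (green). Dotted lines are the median of all genes tested in each fit, 0.01, -0.22 and -0.22. All 9 keep their sign, and Plin2 and Cpt1a lie near 0 in the total count and FPKM fits.

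Ratios between 2 of these genes within a library do not depend on library scaling, and 4 were computed after the values were seen. Gpihbp1 over Lpl, on FPKM, was 231, 53.1 and 82.4 in f/f against 464, 488 and 550.5 in those labelled ECKO, where the lipase was lower and its anchor was not. Gpihbp1 over Cd36 was 1.85, 1.14 and 1.41 in f/f against 3.01, 4.51 and 2.80 in those labelled ECKO. Fabp4 over Cd36 was 0.696, 0.835 and 0.815 against 1.33, 2.33 and 1.295. Fabp4 over Fabp5 was 2.53, 3.24 and 3.31 against 3.65, 5.88 and 3.94. The groups did not overlap in any of the 4, with log2 differences of 2.32, 1.22, 1.03 and 0.54 in that order. Each ratio had an exact permutation p of 0.1 (two-sided, 0.1 also after Benjamini-Hochberg adjustment over the 4), the smallest that 3 against 3 allows.

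The genes whose centred log2 CPM profile over the 6 libraries came nearest to each of the 9 were found by the root mean square difference. The choice uses the difference between the groups, so it fixes the direction of these genes, and their values are a description with no test. Nearest to Lpl were Cpz and Flrt2 (0.15 and 0.16 on the log2 scale, against a spread of 0.99 for Lpl itself), with log2 fold changes of -2.14 and -1.68. Nearest to Cd36 was Arhgap18 (0.064, against a spread of 0.37), with a log2 fold change of -0.59. Nearest to Gpihbp1 were H2-K2 and Slc25a37, the mitochondrial iron carrier mitoferrin 1, with log2 fold changes of 0.51 and 0.58. Armcx6 and Rgs4 were nearest to Pparg, and Itgb8 and Ddit4l to Angptl4, at differences of 0.084 to 0.11. Fam214b and Mad2l1bp were nearest to Fabp4, Zfp146 and H6pd to Fabp5, Mrps30 and Zfp429 to Plin2, and Fut10 and Wdyhv1 to Cpt1a, at 0.016 to 0.034. None of the 9 genes was among the nearest of another.

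Around these 9, 7 lists of lipid genes held 144 genes, of which 124 were tested. Of these 1 rose, 6 fell and 117 did not pass, with a median log2 fold change of 0.07, where 4.03% of all genes tested were called, 2.79% lower, and the median was 0.01. Among 19 genes of lipoprotein lipolysis and lipoprotein receptors (18 tested, median 0.16), 2 fell and none rose. Lrp1, a large endocytic receptor for lipoprotein remnants, stood at 124 ± 9.51 CPM in f/f and fell to 47.8 ± 6.19 CPM (by 1.37 on the log2 scale with SE 0.12, adjusted p = 0.00853). It passed without each library in turn. Lsr, a lipoprotein receptor of hepatocytes, fell by 1.07 on the log2 scale (7.78 ± 1.34 against 3.70 ± 0.0932 CPM; SE 0.20, adjusted p = 0.0314). Its call held without f/f replicate 1 and was lost without each of the other 5 libraries (adjusted p 0.0778 to 0.115).

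Among 23 genes of lipid droplets and triglyceride turnover (17 tested, median 0.05), 1 rose and 1 fell. Lipe, hormone-sensitive lipase, rose by 1.07 on the log2 scale (24.9 ± 2.71 against 52.2 ± 4.44 CPM; SE 0.12, adjusted p = 0.00938). It was at 21.8, 26.9 and 26.0 CPM in f/f against 50.5, 57.2 and 48.9 CPM in those labelled ECKO, with a wide gap between the groups, and it did not pass when ECKO replicate 1 was left out (adjusted p = 0.0509) or on log2(FPKM + 0.1) with limma (0.0599). G0s2, an inhibitor of the triglyceride lipase ATGL, fell by 1.38 on the log2 scale (21.2 ± 7.49 against 8.16 ± 1.43 CPM; SE 0.26, adjusted p = 0.0351). The call held when f/f replicate 1 or 2 was left out and not when any of the other 4 libraries was (adjusted p 0.0770 to 0.122). Pnpla2, which encodes ATGL, was at 88.3 ± 5.25 and 139 ± 28.9 CPM (0.66, SE 0.16, adjusted p = 0.0599).

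Among 22 other PPAR target genes (17 tested, median -0.12), 3 fell and none rose. Cyp4a14 and Cyp4a10, fatty acid hydroxylases of hepatocytes driven by PPAR-alpha, fell by 3.17 and 2.48 on the log2 scale (adjusted p = 0.0153 and 0.0236; SE 0.45 and 0.39). Their levels were low, with 42, 49 and 48 counts of Cyp4a14 in f/f against 3, 6 and 2 in the libraries labelled ECKO, and these genes belong to a family of similar sequence, so their reads may be shared. Ehhadh, a peroxisomal oxidation enzyme, fell by 0.90 on the log2 scale (25.8 ± 4.45 against 13.9 ± 1.63 CPM; SE 0.16, adjusted p = 0.0314). With 1 library left out in turn the 3 genes passed in 3, 2 and 1 of 6 fits in that order, and the highest adjusted p was 0.0801, 0.0875 and 0.103. The 13 hepatocyte markers summed to 1196 to 2018 CPM in f/f and 1151 to 2220.0 CPM in the libraries labelled ECKO, and Alb, albumin, stood at 831 ± 242 and 784 ± 324 CPM. The list's median log2 fold change was 0.46, with 9 of the 13 above 0. Apoa1, Hnf4a and Fabp1 were higher without overlap on CPM, as were 15.7% of all genes tested, and did not pass (1.07, 0.78 and 0.72). On FPKM these 3 overlapped. The only called marker was Cyp3a11, a drug-metabolising enzyme, which went against most of its list. It fell by 2.45 on the log2 scale (13.3 ± 0.894 against 2.43 ± 1.11 CPM; adjusted p = 0.00963), as the Cyp4a genes did. The part of hepatocyte RNA in these genes was not tested, nor that of stellate cells in Lrp1.

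None of the tested genes passed in the 4 other lists by edgeR's quasi-likelihood test. These were fatty acid transport, binding and activation (15 tested, median 0.27, 5 with an unadjusted p under 0.05), PPAR receptors with their partners and cofactors (17 tested, median -0.10, 5), mitochondrial fatty acid oxidation (24 tested, median 0.08, 5) and endothelial regulators of fatty acid transport (17 tested, median 0.10, 4). In these lists DESeq2 called 4, 1, 1 and 2 genes and limma-voom called 0 in each. Over all genes tested 23.5% had an unadjusted p under 0.05, DESeq2 called 11.0% and limma-voom 2.24%, so nothing is read from these counts. Acsl3, an acyl-CoA synthetase, was at 12.2 ± 1.15 and 7.38 ± 1.15 CPM (adjusted p = 0.0589). Fabp1, the hepatocyte fatty acid binding protein, was at 108 ± 15.8 and 177 ± 47.6 CPM (adjusted p = 0.103). Cpt2, the partner of CPT1 on the inner mitochondrial membrane, was at 15.7 ± 1.16 and 21.1 ± 2.81 CPM (adjusted p = 0.114). Eng, the endothelial TGF-beta co-receptor endoglin, was at 2123 ± 65.9 and 2931 ± 253 CPM (adjusted p = 0.0614) and Flt1, the VEGF-B receptor, at 674 ± 180 and 971 ± 98.2 CPM (adjusted p = 0.152). Total count scaling, which moved the median of all genes to -0.22, put the medians of 4 lists below 0 but above that of all genes: lipolysis at -0.083, droplets at -0.18, mitochondrial oxidation at -0.16 and endothelial regulators at -0.12.

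**Figure D5:**
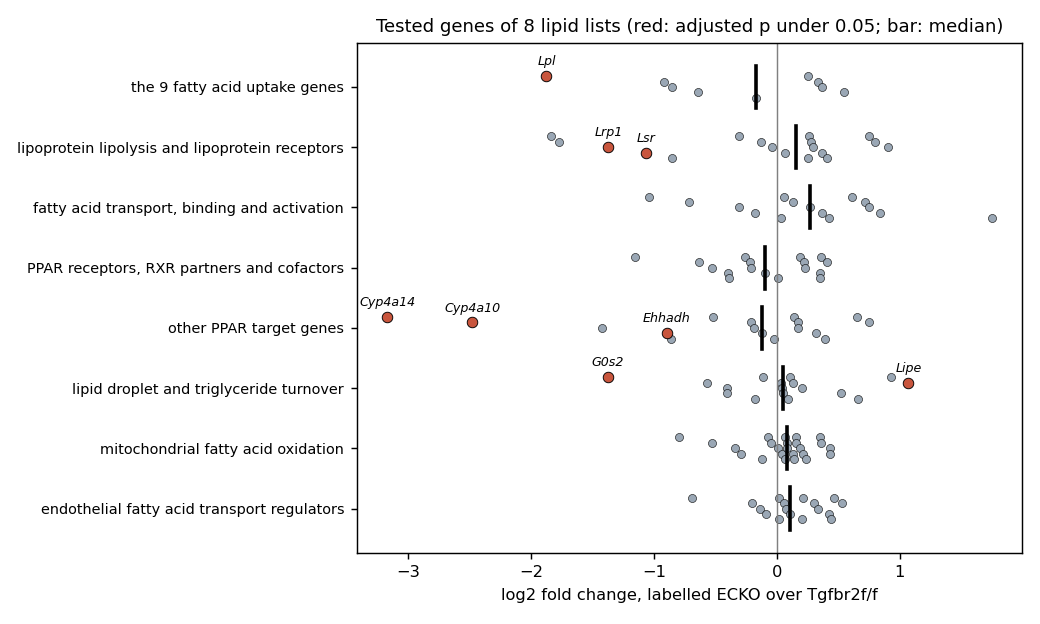
Log2 fold change (horizontal axis, libraries labelled ECKO over f/f) of each tested gene in the 9-gene set and the 7 other lipid lists, edgeR with TMM scaling. Red points pass an adjusted p of 0.05, grey points do not, and black bars are list medians. The list medians lie between -0.17 and 0.27, and 8 genes pass in all, Lipe being the only one to the right of 0.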

How the data were processed

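RNA-seq was analysed from LSECs of 3 f/f and 3 ECKO libraries, grouped by their titles. Per the file headers, the authors gave each gene a raw count, a whole number with no scaling, and an FPKM value. The submitters' processing notes name HISAT2 2.0.4 and StringTie 1.3.0, with no role, and mm10 and GRCm38.p4 as builds. What counted the reads, with which annotation and strand setting, was not given in the sources used here. No columns were left out. FPKM equalled the count scaled by one length per gene and the library total to a relative difference of 4.53e-06. This was checked for tested genes with more than 200 counts in every library, which leaves out Lpl, Pparg and Angptl4. Without a stated strand setting, reads of overlapping genes cannot be told apart. Pparg alone of the members overlapped another deposited gene, which had no counts.

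Counts were tested in R 4.3.3 with edgeR 4.0.16 (filterByExpr with minimum count 10 and total 15, TMM, robust quasi-likelihood F-test, genotype as the only term, two-sided). Benjamini-Hochberg adjustment ran over all 13692 genes tested, with a threshold of 0.05. SE is the absolute log2 fold change over the square root of F. The functions were tested on simulated data. Alternatives used limma 3.58.1, DESeq2 1.42.0, other scalings and filters, FPKM with pseudocounts of 0.1 and 1, and each library left out. Counting intervals cover counting error only.

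The members and lists were chosen with earlier results of these data known. Named genes were the members, Tgfbr2, up to 4 genes per lipid list with the smallest p, 6 defining markers (Alb, Lrat, Clec4f, Adipoq, Stab2, Cd34) and 2 nearest profiles per member, of which some are not reported here. Nearest profiles used log2(CPM + 0.1) of genes averaging at least 1 CPM. Ppara, Ppard and the markers beyond these 6 were named after their values were seen. Of the other marker lists, 7 B and plasma cell genes summed to 8.65 to 23.0 CPM in f/f and 2.73 to 3.79 CPM in ECKO, and 6 cholangiocyte genes to 214 to 602 and 139.5 to 189 CPM.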

Additional observations from a re-analysis of the deposited data

How the results depend on the processing

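All 9 members kept their direction in each of the 17 alternatives fitted and against summed sinusoidal markers, a scaling added after seeing the data (Fabp5 -0.35, Plin2 0.076 there). Genes called numbered 1272 under total count scaling (9.29% of those tested), 1508 in DESeq2 (11.0%), 307 in limma-voom (2.24%) and 35 to 1012 without single libraries, against 552. In those the members called were 3, 4, 0 (8 with an unadjusted p under 0.05) and 0 to 2, against 1. The share of all genes at that unadjusted p was taken in the main fit only, so nothing is read from the 8. They were 2 without the filter (3.63% of genes called) and 3 on log2(FPKM + 0.1) (4.01%). The median of all genes was -0.22 under total count scaling and on log2(FPKM + 0.1), and -0.14 on log2(FPKM + 1). Cd36 passed under total count scaling (-0.90), in DESeq2 (-0.66), without the filter (-0.63) and on log2(FPKM + 0.1) and log2(FPKM + 1) (-0.90 and -0.89). Pparg passed under total count scaling (-1.13), in DESeq2 (-0.94) and on log2(FPKM + 0.1) (-1.10), and Gpihbp1 in DESeq2 (0.53) and without f/f replicate 1 (0.39 to 0.70 over single libraries left out). Lpl did not pass in limma-voom (-1.73), on log2(FPKM + 1) (-1.08) or without 5 of the 6 libraries (-2.20 to -1.60 over all 6). The cause was not tested.

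With the replicate number as a block, 285 genes were lower, 131 were higher and 0 members passed (8 with an unadjusted p under 0.05) and Lpl was at -1.77 (adjusted p = 0.0587). The share of all genes at that unadjusted p was not taken for this fit either. Whether the numbers pair the libraries is not known. Deviations of same-numbered libraries correlated at 0.09, 0.15 and -0.05, and those of differently numbered ones at -0.15 to 0.09. With 3 libraries per group these values cannot settle it.

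Under total count scaling (median of all genes -0.22) the medians of the 7 lipid lists were -0.083 (lipolysis), 0.015 (fatty acid transport), -0.31 (PPAR receptors), -0.37 (PPAR targets), -0.18 (droplets), -0.16 (oxidation) and -0.12 (endothelial regulators). Without single libraries the transport list ran from 0.047 to 0.34 and the regulators from 0.017 to 0.19. Rxra and Tgfbr2, at 0.22 each, turned to -0.016 and -0.024 under total count scaling, to -0.015 and -0.010 on log2(FPKM + 0.1) and to -0.015 and -0.010 on log2(FPKM + 1). Depth limits Lpl, Pparg and Angptl4 most, with 69 to 471 counts per library.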
